A study of Rattus norvegicus with 9 samples.

Results

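The genes described here had almost no reads in differentiated RN46A cells, a rat line immortalised from embryonic raphe and labelled serotonergic, unless the cells had been cultured with valproate (VPA). They were chosen by raw count: a sum of 20 or less over the 6 control and lithium libraries together, and 10 or more in each of the 3 VPA libraries. The count table holds 32662 genes, of which 58 met both limits, 10 of these were left out by name, and 48 remained. A symbol was given for 36 of the 48 in the authors' tables, and 12 had none. All groups held the same line, grown at 33 °C in 5% serum, moved to 39 °C in 1% serum for 72 h to differentiate, and kept for another 72 h with 0.5 mM lithium, with 0.5 mM VPA, or as controls. Each group had 3 libraries of polyadenylated RNA, made from 1 cell line, so the values describe that line alone.

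VPA is a mood stabiliser and anticonvulsant that inhibits class I histone deacetylases, enzymes that remove acetyl groups from histone tails. Acetylated histones are a mark of open, transcribed chromatin. Deacetylases act within co-repressor complexes that hold many neuronal genes silent in other cells. Lithium, the other drug, is not a histone deacetylase inhibitor. It acts on glycogen synthase kinase 3 and inositol monophosphatase.

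The limits fixed how these genes differ between VPA and the other libraries, so their VPA values are given as a description, with no test. With lithium or with control in the place of VPA, the same limits found 0 and 0 genes. The mirror image asked for a VPA sum of 10 or less with 10 or more in each of the 6 other libraries. It is stricter than the rule, which asks for 10 or more in 3 libraries, so the numbers of genes are not like for like. It found 2 genes. These were Epha10, an ephrin receptor, with 12, 32 and 21 counts in the control libraries and 3, 5 and 1 in the VPA libraries, and Mcpt8l2, a mast cell protease of a family of similar copies.

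Library totals ran from 9580591 to 13030300 counts, and 1 count was worth 0.0770 to 0.109 CPM (counts scaled to library size). At such low levels the counting error is large, and 95% intervals of ratios below (exact, from the binomial distribution) cover that error only. Whether a group's libraries are separate cultures is not in the labels, so p-values measure a spread between samples that may be technical. In bulk RNA, more cells with a transcript and more transcript per cell cannot be told apart. Reads were counted without strand, so reads from a stretch shared by overlapping genes cannot be told apart either.

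Promoters of 3 CpG-rich and 3 CpG-poor members are shown because the 29 genes with a matched promoter fall on both sides of this division, which the rule did not use. Each line gives the 250 bases before the annotated start, 5′ to 3′ on the gene's strand, from RefSeq on the rat build GRCr8. Capitals mark GGGCGG or its reverse complement CCGCCC, the core of a GC box, and CCAAT or ATTGG, the CCAAT box.
Tmeff1: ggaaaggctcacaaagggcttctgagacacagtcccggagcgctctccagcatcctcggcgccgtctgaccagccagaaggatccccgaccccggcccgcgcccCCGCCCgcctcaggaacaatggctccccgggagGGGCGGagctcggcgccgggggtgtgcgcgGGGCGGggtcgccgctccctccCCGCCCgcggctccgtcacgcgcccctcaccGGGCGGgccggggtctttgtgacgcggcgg
Sel1l3: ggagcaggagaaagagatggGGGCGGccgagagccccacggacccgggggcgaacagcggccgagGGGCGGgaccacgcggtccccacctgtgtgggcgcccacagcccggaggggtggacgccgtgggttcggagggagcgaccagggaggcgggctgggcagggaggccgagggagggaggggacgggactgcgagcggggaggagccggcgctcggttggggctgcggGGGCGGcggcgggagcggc
Rims1: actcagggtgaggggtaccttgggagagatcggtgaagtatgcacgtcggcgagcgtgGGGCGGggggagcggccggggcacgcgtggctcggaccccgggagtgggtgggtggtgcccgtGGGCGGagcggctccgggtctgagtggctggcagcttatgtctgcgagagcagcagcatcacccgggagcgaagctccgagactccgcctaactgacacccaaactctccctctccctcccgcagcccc
Klk13: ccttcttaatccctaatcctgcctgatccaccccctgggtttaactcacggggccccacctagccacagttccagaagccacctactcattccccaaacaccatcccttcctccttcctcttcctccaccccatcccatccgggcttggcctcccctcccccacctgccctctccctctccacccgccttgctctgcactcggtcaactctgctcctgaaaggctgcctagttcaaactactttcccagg
Klra2: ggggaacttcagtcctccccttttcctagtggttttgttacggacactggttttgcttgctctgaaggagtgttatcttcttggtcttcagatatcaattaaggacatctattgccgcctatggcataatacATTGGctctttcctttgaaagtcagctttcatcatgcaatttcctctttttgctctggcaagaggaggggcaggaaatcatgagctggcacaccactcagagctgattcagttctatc
Plppr4: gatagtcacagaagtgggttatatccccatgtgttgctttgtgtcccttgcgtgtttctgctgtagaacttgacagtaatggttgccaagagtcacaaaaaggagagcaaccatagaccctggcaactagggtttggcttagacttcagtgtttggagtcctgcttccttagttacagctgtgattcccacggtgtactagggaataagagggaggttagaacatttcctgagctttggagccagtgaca
The windows lie at chr5:67706019-67706268 (plus strand) for Tmeff1, chr14:61988100-61988349 (plus) for Sel1l3 and chr9:32692773-32693022 (minus) for Rims1. Those of Klk13, Klra2 and Plppr4 lie at chr1:103301685-103301934 (plus), chr4:166716803-166717052 (minus) and chr2:208097192-208097441 (minus).

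Across the 48 genes the counts summed to 120, 83 and 110 in control 1, 2 and 3, to 69, 114 and 111 in lithium 1, 2 and 3, and to 964, 701 and 1067 in VPA 1, 2 and 3. Summed CPM was 9.89 ± 0.944 in control, 8.17 ± 2.05 in lithium and 78.7 ± 6.10 in VPA (SD, n = 3 libraries each). The ratio of VPA to control CPM, pooled over libraries, had a median of 8.68 and ran from 3.31 to 42.8. For 9 genes the control libraries together held 3 counts or fewer, and for 3 genes the lithium libraries held 0.

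**Figure D1:**
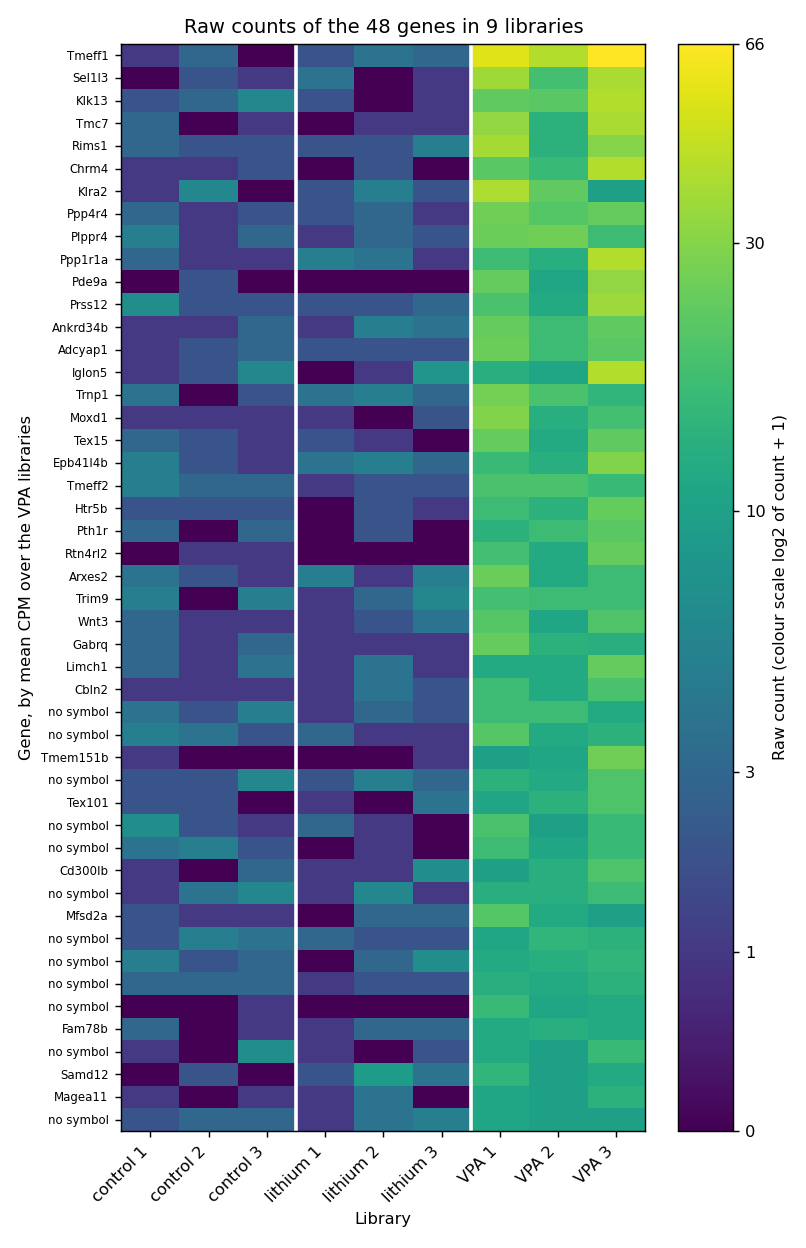
Raw counts of the 48 genes (rows, ordered by mean CPM in VPA) in the 9 libraries (columns); colour is log2 of count + 1, labelled in counts. The VPA columns hold 10 to 66 counts, and the control and lithium columns hold 0 to 9.

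Among secreted proteins, Klk13, a kallikrein serine protease, had 2, 3 and 6 counts in control, 2, 0 and 1 in lithium and 23, 22 and 40 in VPA. Every VPA library stood above every other, with a ratio to control of 7.03 (3.74 to 14.6). Adcyap1, which encodes the neuropeptide PACAP, had 1, 2 and 3 counts in control, 2, 2 and 2 in lithium and 25, 17 and 22 in VPA. In CPM its VPA libraries were close together, at 1.85 ± 0.0942 (SD, n = 3). Prss12, the secreted protease neurotrypsin, had 7, 2 and 2 counts in control, 2, 2 and 3 in lithium and 19, 12 and 35 in VPA. Its ratio to control was among the lower ones, 5.46 (2.86 to 11.5). Wnt3, a Wnt ligand, had 3, 1 and 1 counts in control, 1, 2 and 4 in lithium and 21, 11 and 20 in VPA. Cbln2 is a secreted organiser of synapses that binds neurexins. It had 1 count in each control library, 1, 4 and 2 in lithium and 17, 12 and 19 in VPA. Over these 5 genes the fitted log2 difference of VPA from control had a median of 3.14 and a range of 2.39 to 3.71.

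Receptors and channels made up 6 members. Chrm4, the muscarinic acetylcholine receptor M4, had 1, 1 and 2 counts in control, 0, 2 and 0 in lithium and 22, 16 and 40 in VPA, a ratio of 17.7 (6.66 to 66.7). Htr5b, a serotonin receptor, had 2 counts in every control library, 0, 2 and 1 in lithium and 17, 14 and 24 in VPA. Both sets of VPA libraries lay clear of the others in counts, which the limits required at such low sums, and VPA 3 was the highest in each. Gabrq, the theta subunit of GABA-A receptors, had 3, 1 and 3 counts in control, 1 in each lithium library and 24, 14 and 13 in VPA. Pth1r, the parathyroid hormone receptor, was counted 3, 0 and 3 times in control, 0, 2 and 0 in lithium and 14, 17 and 22 in VPA. Rtn4rl2 belongs to the Nogo receptor family of axonal surface proteins. Its counts were 0, 1 and 1 in control, 0 in every lithium library and 18, 12 and 24 in VPA. The transmembrane channel-like gene Tmc7 had 3, 0 and 1 counts in control, 0, 1 and 1 in lithium and 33, 14 and 38 in VPA. Median log2 difference from control was 3.50 for this set.

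Among other membrane proteins, Tmeff1, with EGF-like and follistatin domains, had 1, 3 and 0 counts in control, 2, 4 and 3 in lithium and 54, 40 and 66 in VPA. Its gap between the lowest VPA count and the highest of the 6 other libraries was 36 counts, and its ratio to control was 36.4 (13.9 to 135). Its relative Tmeff2 had 5, 3 and 3 counts in control, 1, 2 and 2 in lithium and 19, 19 and 16 in VPA. The ratio for Tmeff2 was lower, 4.47 (2.31 to 9.47). Sel1l3, a membrane protein related to Sel1l, had 0, 2 and 1 counts in control, 4, 0 and 1 in lithium and 36, 18 and 38 in VPA. Plppr4, a neuronal membrane protein related to lipid phosphatases, had 5, 1 and 3 counts in control, 1, 3 and 2 in lithium and 25, 26 and 17 in VPA. VPA 3 was the lowest VPA library for Plppr4 and the highest for Sel1l3. Iglon5, an immunoglobulin-type adhesion protein, had 1, 2 and 6 counts in control, 0, 1 and 8 in lithium and 13, 11 and 40 in VPA. Its lowest VPA library was only 3 counts above its highest lithium library. Moxd1, a monooxygenase related to dopamine beta-hydroxylase, had 1 count in each control library, 1, 0 and 2 in lithium and 29, 13 and 18 in VPA. Mfsd2a, a lysophosphatidylcholine transporter, and Tmem151b completed this set. Tmem151b had 1, 0 and 0 counts in control, 0, 0 and 1 in lithium and 10, 11 and 26 in VPA, so that its ratio of 42.8 rests on 1 control count and has an interval from 7.31 to 1725.

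The group of signalling, release and cytoskeletal proteins held 7 genes. Rims1, a scaffold of the presynaptic active zone, had 3, 2 and 2 counts in control, 2, 2 and 5 in lithium and 37, 14 and 30 in VPA. Ppp4r4, a regulatory subunit of protein phosphatase 4, had 3, 1 and 2 counts in control, 2, 3 and 1 in lithium and 26, 21 and 24 in VPA. Ppp4r4 varied little across the VPA libraries, with a highest-to-lowest CPM ratio of 1.17. Ppp1r1a, an inhibitor of protein phosphatase 1, had 3, 1 and 1 counts in control, 5, 4 and 1 in lithium and 17, 13 and 40 in VPA. Pde9a, a phosphodiesterase of cyclic GMP, had 0, 2 and 0 counts in control, 0 in all lithium libraries and 24, 11 and 33 in VPA. The ratio of Pde9a to control was 30.9, with an interval of 8.24 to 261 because the controls held 2 counts. Epb41l4b, a FERM domain protein, had 5, 2 and 1 counts in control, 4, 5 and 3 in lithium and 16, 13 and 29 in VPA. Trim9, a brain E3 ubiquitin ligase, had 5, 0 and 5 counts in control, 1, 3 and 6 in lithium and 18, 17 and 17 in VPA. Both reached the limit of 20 summed counts in the control and lithium libraries. Limch1, which binds non-muscle myosin, had VPA counts of 12, 12 and 24.

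Germ-line genes were Tex15, which acts in meiosis and the silencing of transposons in spermatogenesis, Tex101, a sperm surface protein, and Magea11, of the cancer-testis MAGE family. Tex15 had 3, 2 and 1 counts in control, 2, 1 and 0 in lithium and 24, 12 and 23 in VPA. Tex101 was counted 2, 2 and 0 times in control, 1, 0 and 4 in lithium and 11, 14 and 20 in VPA. Magea11 had 1, 0 and 1 counts in control, 1, 4 and 0 in lithium and 11, 10 and 14 in VPA. All 3 stood above the other libraries in each VPA library, which the limits required in counts at such low sums. The leucocyte receptors Klra2 and Cd300lb showed the same order of groups. Klra2, of the natural killer lectin-like receptors, had 1, 6 and 0 counts in control, 2, 5 and 2 in lithium and 39, 23 and 10 in VPA. The VPA libraries of Klra2 differed most, with a highest-to-lowest CPM ratio of 3.79. Klra2, Magea11, Klk13 and Arxes2 belong to families of related genes, and how alike their sequences are was not measured. Reads may be split among similar copies, which leaves the values of these genes uncertain.

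Roles were less settled for 5 more genes. Ankrd34b had 1, 1 and 3 counts in control, 1, 5 and 4 in lithium and 24, 17 and 23 in VPA, and its VPA libraries were the closest in CPM of any member, with a highest-to-lowest ratio of 1.03. Trnp1, a nuclear protein of neural progenitors, had 4, 0 and 2 counts in control, 4, 5 and 3 in lithium and 27, 19 and 15 in VPA. Arxes2 had 4, 2 and 1 counts in control, 5, 1 and 5 in lithium and 25, 12 and 17 in VPA. Samd12 and Fam78b made up the rest.

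The authors' tables were made from the same libraries and are no independent evidence. Their deposited DESeq2 table has 1212 lines (3.71% of the genes in the count table) and lists 36 of the 48 genes. These were chosen on the same contrast, so nothing is read from the count. Their log2 differences in that authors' deposited table run from 1.1 to 2.9 with a median of 1.5. The edgeR fit of the counts gave a median of 2.98 over the 43 genes tested, against -0.01 over all 12719. The authors' median covers the 36 genes with a symbol, so the sets differ. Over the 32 tested genes with a symbol the edgeR median was 3.18. The cause of the gap between the authors' median and the edgeR medians of the members was not tested. Per length, the authors' deposited Cufflinks table gives 1 FPKM value a group: 0.320 in control and 2.61 in VPA for Klk13, 0.500 and 2.87 for Trnp1, 0.277 and 1.71 for Iglon5, and 0.0671 and 0.864 for Tmc7. On that scale Trnp1 and Klk13 were the highest of the 4 in VPA. The authors' deposited table from Salmon and sleuth lists Htr5b at 1.69 ± 0.50 (SE) and Arxes2 at 1.74 ± 0.52 (SE), in natural log units. Of the 48 genes, the Cufflinks table, of 1097 lines (3.36% of the genes in the count table), lists only 4. The Salmon and sleuth table, of 941 lines (2.88%), lists only 2. The authors' deposited lithium table, of 137 lines (0.419% of the genes in the count table), lists 0 of the 48. With so small a share, nothing is read from this 0.

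In edgeR's quasi-likelihood test, 726 of 12719 genes (5.71%) were higher in VPA than in control and 38 of the 43 members tested were among them; since the limits chose the members on this contrast, nothing is read from it. Lower in VPA were 380 genes (2.99%), with 0 members. Against lithium 714 genes (5.61%) were higher, with 40 of the 43 members, and 295 (2.32%) were lower, with 0 members, under the same reservation. Mfsd2a, Tmem151b, Klra2, Cd300lb and 1 gene without a symbol did not pass the filter on low counts. With the replicate number as a block the total of calls against control, in both directions, was 1741 in place of 1106.

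The 3 VPA libraries differed among themselves. The highest-to-lowest CPM ratio among VPA libraries had a median of 1.55, against 1.69 for 1807 other tested genes of the same VPA level. The limit of 10 counts in each VPA library removes genes with 1 low VPA library, and over the 1524 of those others that met it the median was 1.602. VPA 3 was at least 1.5 times the mean of VPA 1 and 2 for 9 genes (18.8%, against 12.01% of those 1524) and at most 1/1.5 of it for 6 (12.5%, against 20.997%). The 9 were Klk13, Chrm4, Ppp1r1a, Pde9a, Prss12, Iglon5, Epb41l4b, Limch1 and Tmem151b. In this set the mean CPM was 1.35 in VPA 1, 1.44 in VPA 2 and 2.74 in VPA 3, and 0.134 to 0.232 in the other libraries. The 6 were Klra2, Plppr4, Trnp1, Gabrq, Mfsd2a and 1 gene without a symbol, at 1.99, 1.98 and 1.03 CPM in VPA 1, 2 and 3. These sets were sorted on the VPA libraries themselves and are a description.

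**Figure D2:**
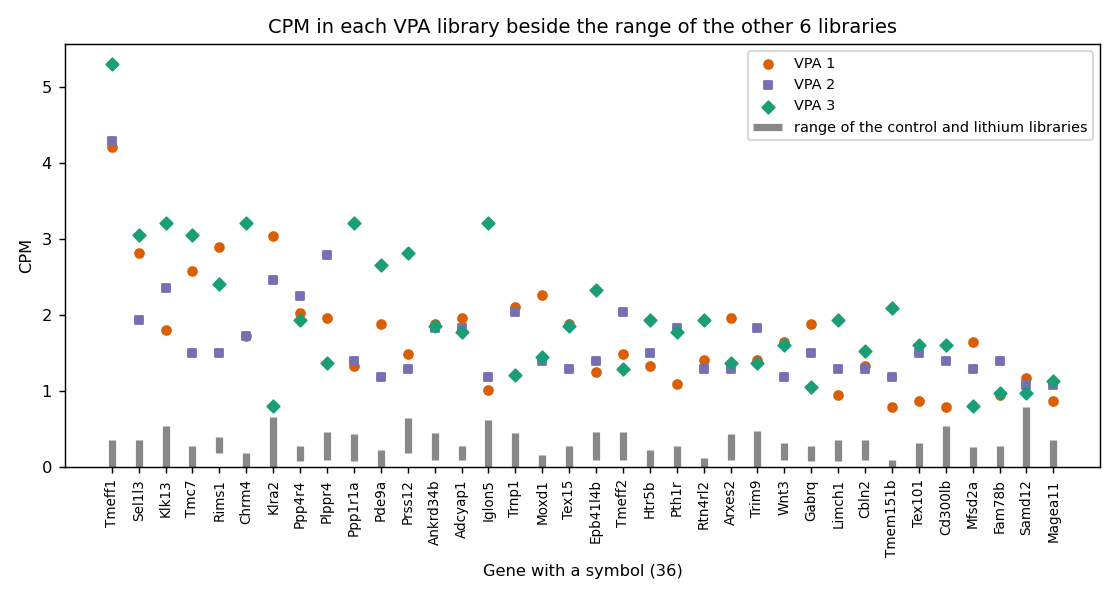
CPM of the 36 genes with a symbol in VPA 1, 2 and 3 (points), beside the range over the 6 control and lithium libraries (grey bars); genes are ordered by mean VPA CPM. All VPA points lie above the grey bars, and VPA 3 lies apart from VPA 1 and 2 for Iglon5 and Ppp1r1a (higher) and Klra2 (lower).

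Lithium against control is the comparison that the limits did not choose by direction, though the limit on the sum holds both groups low. No gene of 12719 passed an adjusted p of 0.05 (0%) in edgeR, and DESeq2 called 0 as well. Unadjusted p was under 0.05 for 116 genes (0.912%) in edgeR and for 113 in DESeq2, where the share was not computed. With no difference at all, a fraction near 0.05 of genes would be reached. The 0 calls therefore do not show that lithium had no effect, and the cause of the low share was not tested. Among the members, unadjusted p was under 0.05 for 3 of the 43 in edgeR and 2 of 48 in DESeq2. In edgeR these were Klk13, lower in lithium by a log2 difference of -1.93 ± 0.82 (SE, unadjusted p = 0.0363), and Samd12, higher by 2.52 ± 0.98 (SE, unadjusted p = 0.0252). The remaining gene, ENSRNOG00000004534, had a log2 difference of -3.22 ± 0.92 (SE, unadjusted p = 0.00435, edgeR). Each had an adjusted p of 1 in edgeR. Samd12 had 0, 2 and 0 counts in control and 2, 9 and 4 in lithium, and its lithium 2 came within 1 count of its lowest VPA library. ENSRNOG00000004534 had 4, 5 and 2 counts in control and 0, 1 and 0 in lithium.

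Mean CPM was lower in lithium than in control for 31 members and higher for 17. The same split was not taken over all genes, or over genes at a like level of counts. Nothing is therefore read from the split of the members. Lithium 1 had the lowest summed CPM of the members, 5.95, where every other library had 8.55 or more. Every control library stood above every lithium library in CPM for 6 of the 43 members, where 1.57% of all genes did so: Klk13, Tmeff2, Htr5b, Gabrq and 2 without a symbol. The reverse order held for 0 of the 43, where 1.71% of all genes showed it. For Klk13, Htr5b and Gabrq the lowest control count equalled the highest lithium count, at 2, 2 and 1. Their order in CPM thus came from library scaling alone. The shares of all genes were not taken at a like level of counts. The fitted median of lithium over control was -0.56 on the log2 scale, against 0.00169 for all genes. Over all 48 members, with no filter on low counts, it was -0.19. The 12 genes without a symbol were lower in lithium in 11 cases, and the 36 with one in 20; symbols come from tables selected on the VPA contrast, which shares these controls. Over the same 43 members the median was -0.24 with a prior count of 2. Leaving out 1 library at a time, over the same 43, gave -0.75 to -0.22, with -0.29 without lithium 1, -0.37 without control 1 and -0.22 without control 3.

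**Figure D3:**
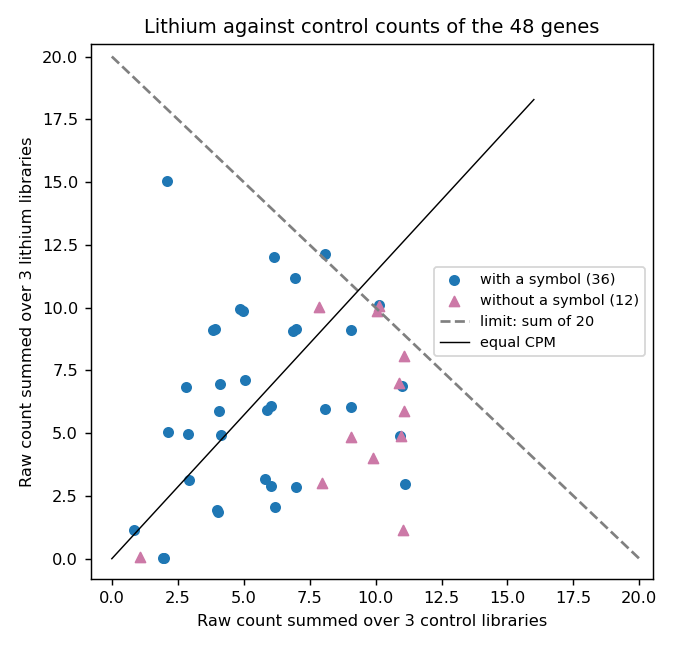
Raw counts of the 48 genes summed over 3 lithium libraries (vertical) against 3 control libraries (horizontal), jittered slightly; circles have a symbol, triangles have none, the solid line is equal CPM and the dashed line the limit of 20. Points scatter on both sides of equality, Samd12 (2 and 15) lies highest, and 11 of the 12 triangles lie on the control side.

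The limits cut through a continuous range. Inside the limit on the sum, 11 members had 18 to 20 counts over the 6 libraries, Trim9 and Epb41l4b among them at 20. Just outside, 10 genes had 21 to 23, with Sncb, the synaptic protein beta-synuclein, at 21 and VPA counts of 22, 31 and 33, and Gli1, a hedgehog pathway factor, at 21 and VPA counts of 33, 27 and 47. Inside the VPA limit 9 members had a lowest VPA count of 10, such as Magea11 and Mfsd2a. Just outside, 20 genes had 8 or 9. Among those, the postsynaptic scaffold gene Shank1 had 0 counts in all 6 control and lithium libraries and 12, 9 and 17 in VPA, and the NMDA receptor gene Grin1 had 7 counts over the 6 and 10, 9 and 11 in VPA.

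Promoters of 300 bases (250 before the start and 50 after it) could be matched for 29 of the 36 genes with a symbol, 33 promoters in all, 4 of them of Limch1 and 2 of Iglon5. CpG-rich here means a GC content of 50% or more and a CpG observed-to-expected ratio of 0.6 or more. By that measure 57.6% of the members' promoters (19 of 33) were CpG-rich, against 31.2% of all 33469 promoters, 59.0% of 990 promoters of other tested genes with a symbol and 67.6% of 472 of the genes that rose with VPA. Counted by promoter, the members' share thus lay close to that of the other tested genes with a symbol, above that of all promoters and below that of the genes that rose. The promoters of Iglon5 and most of those of Limch1 were not CpG-rich, which lowers the members' share. Shares by gene were not compared across the sets, so this order holds for promoters only. Of the promoters printed, Tmeff1 had a ratio of 0.948, Sel1l3 0.926 and Rims1 0.815, and Klk13 had 0.251, Klra2 0.198 and Plppr4 0.125.

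Motifs were searched on both strands of the same windows. GGGCGG was in 69.7% of the members' promoters, 33.1% of all, 64.4% of the other tested genes with a symbol and 73.3% of the genes that rose with VPA. CCAAT was in 42.4%, 37.5% and 34.3%, and TATAAA in 12.1%, 14.2% and 8.59%. GGACAG and TTCAGCACC, parts of the element bound by the repressor REST, were in 33.3% and 0% of the members' promoters, in 21.7% and 0.356% of all and in 25.4% and 0.808% of the other tested genes with a symbol. The cyclic AMP element TGACGTCA was in 0%, 1.83% and 1.92% of these sets, and the E-box CAGCTG in 15.2%, 15.1% and 18.3%. GGGCGG raises the CpG count of a window, so these measures overlap. A match shows only that the letters are there.

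**Figure D4:**
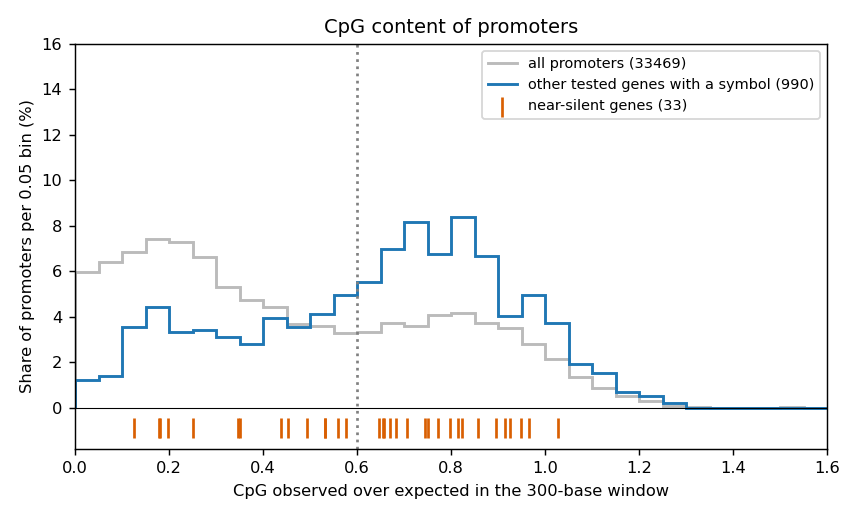
CpG observed-to-expected ratio in 300-base promoter windows: share of promoters per 0.05 bin for all promoters (grey) and for other tested genes with a symbol (blue), with each of the 33 promoters of the near-silent genes as a tick below 0. The ticks run from 0.125 upward on both sides of the dotted line at 0.6.

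On the GRCr8 annotation 35 of the 36 genes were found, on 16 chromosomes, with at most 5 on one and 0 pairs of neighbours. Another gene overlapped 12 of them, a protein-coding one in 4 cases: Mdk for Chrm4, Pde1b for Ppp1r1a, LOC102550534 for Tmc7 and Tcte1 for Tmem151b. Tcte1, a testis gene, had 2, 2 and 2 counts in control, 1, 2 and 3 in lithium and 10, 6 and 35 in VPA. VPA 3 was the highest library for both Tcte1 and Tmem151b. Reads from the stretch that this pair shares cannot be told apart by strand.

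The genes of the deacetylase and co-repressor complexes were measured as a list of 41 symbols, of which the tables named 3. In VPA against control 0 of the 3 rose and 2 fell: Chd3, the remodelling subunit of the NuRD complex, by a log2 difference of -1.45 ± 0.21 (SE, edgeR adjusted p = 0.0021), and Mbd3, another NuRD subunit, by -0.83 ± 0.22 (SE, edgeR adjusted p = 0.039). Hdac7, a class IIa deacetylase, had -0.77 ± 0.24 (SE, edgeR adjusted p = 0.071), which did not pass. The other 38 symbols were not analysed here. Of all 1243 tested genes with a symbol, 50.04% rose and 27.0% fell. Symbols come from the authors' tables, selected on the same libraries, so the count of this list is no independent evidence of its direction.

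Symbols exist only for genes in the authors' tables, which were selected by p-value on the same libraries, so the counts of any list below are not independent evidence of its direction, and levels of unnamed markers were not analysed here. Of all 1243 tested genes with a symbol 622 rose (50.04%) and 335 fell (27.0%), and each count is to be read beside these shares. Several lists match by the start of a symbol and took in other genes: Htra3, Gprin1 and Gprasp2 in the receptor list, Rab39a and Rab30 in the vesicle list, Galnt enzymes and receptors such as Fgfr1 and Il6r in the ligand list, and Mbd3, Mboat2, Mblac2 and Mb21d2 in the muscle list. Their counts are those of the matched symbols, not of the class. Of the ion channel list 13 of 18 tested rose and 3 fell, with Gabrq among them; of the G protein-coupled receptor list 11 of 17 rose and 3 fell, with Chrm4 and Htr5b. The synaptic vesicle list had 16 of 22 higher and 3 lower (Rims1 a member), and the postsynaptic list 21 of 27 higher and 1 lower (Ppp1r1a and, by the start of its symbol, Adcyap1). Of the ligand list 21 of 47 rose and 14 fell, with Wnt3, Cbln2 and Adcyap1. Of the serotonergic list 4 of 5 rose and 1 fell, Htr5b being a member.

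Marker lists of other cell types were measured too, beside the same shares, and their part in the counts of the near-silent genes was not tested. Of the glial and neural crest markers 5 of 6 rose and 1 fell, with a summed CPM of 155 to 197 in control, 149 to 170.4 in lithium and 306 to 431 in VPA. Of the leucocyte markers 1 of 3 rose, Cd68, a macrophage lysosomal protein, by 1.63 ± 0.30 (SE, edgeR adjusted p = 0.0070). Neither of the other two passed: Coro1a had a log2 difference of 0.91 ± 0.29 (SE, edgeR adjusted p = 0.079) and Ptpn6 one of -0.84 ± 0.25 (SE, edgeR adjusted p = 0.063). The leucocyte list summed to 28.7 to 44.4, 36.4 to 50.7 and 48.4 to 83.9 CPM. The germ-line list had 11 of 15 higher and 4 lower. Its summed CPM was 327 to 483 in control, 344 to 552 in lithium and 238 to 259 in VPA. Entries that match by the start of a symbol took in genes with no germ-line role, such as Ccdc80 and Adam33, so this count and sum are not those of germ-line genes alone. Of the fibroblast markers 1 of 8 rose and 5 fell, with 6053 to 7924 CPM in control, 5065 to 6589.6 in lithium and 2601 to 4200.2 in VPA. Of the epithelial markers 2 of 7 rose and 3 fell, of the muscle list 3 of 9 rose and 5 fell, and of the endothelial markers 0 were named.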

How the data were processed

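Per the labels' protocols, total RNA with a RIN above 7 was made into libraries, and the submitters' processing notes name STAR 2.5.1, Cufflinks 2.2.1, Salmon 0.6.1, sleuth, kallisto 0.42.4, DESeq2 and CASAVA 1.8 without roles. The authors' genome build is not given in the sources used here. The authors deposited raw counts per Ensembl gene. The authors' DESeq2 tables hold log2 fold changes, p-values, mean normalized counts (a signal) and a test score, per the file headers. The authors' Cufflinks table gives FPKM per group with q-values, and the sleuth table deposited by the authors gives natural log effects.

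Counts were tested with edgeR 4.0.16 (R 4.3.3; TMM factors, filterByExpr with a minimum count of 10, robust quasi-likelihood test with 1 mean per group and 9 libraries, 6 residual degrees of freedom, Benjamini-Hochberg adjustment), checked on simulated data. DESeq2 1.42.0 was an alternative. CPM used TMM-scaled totals. Biological coefficient of variation was 0.22. Members and lists were chosen with earlier results of these data known. Genes named with values in every library are the 25 members with a symbol and the highest VPA mean, up to 3 per list, those at the extremes of the VPA spread and those nearest the limits; others named were chosen after their values were seen. Shares over all tested genes with a symbol, over genes that met the VPA minimum, and medians over 1 set of 43 members were added after seeing the data. Promoters are from RefSeq (GRCr8). Same-numbered VPA and control libraries deviated together (correlations 0.600, 0.533 and 0.525 over 10288 genes), with the numbers taken from the sample titles. Lithium libraries correlated with same-numbered control libraries at -0.418, -0.0815 and 0.801, and with VPA libraries at -0.181, 0.0530 and 0.538. All 3 groups thus deviated together only in replicate 3. The replicate number was blocked as an alternative.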

Additional observations from a re-analysis of the deposited data

How the results depend on the processing

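The number of genes within the limits depended on where they were set: a sum limit of 10 gave 16 and one of 40 gave 160, and a VPA minimum of 20 gave 3 and one of 5 gave 165. Leaving out 1 library at a time gave 53 to 89 (89 without VPA 2), since fewer libraries have to meet the limits. With the replicate number as a block, 1741 genes were called for VPA against control, or 2408 with VPA and control libraries alone, and 1609 against lithium, in place of 1106 and 1009. Leaving out 1 library gave 638 to 1026 calls against control (under 1/1.5 of 1106 without VPA 1, VPA 2, VPA 3 or control 1) and 544 to 1197 against lithium (under 1/1.5 of 1009 without any 1 VPA library, lithium 1 or lithium 2). The members' median log2 difference of VPA from control, 2.98, was 2.26 with a prior count of 2 and 2.72 to 3.29 without 1 library. The cause of these shifts was not tested. The pooled ratio of VPA to control CPM is another measure and covers all members, tested or not. Its median was 8.682, and 8.678 (3.12 on the log2 scale) with controls of 3 counts or fewer set to 3. Lithium against control had 0 calls in every alternative run. With the lithium and control libraries alone no member passed the filter on low counts, so no count of members could be had. With 1 count worth 0.0770 to 0.109 CPM, the smallest difference between control and lithium that could have been detected was not tested.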
